A study of Mus musculus with 6 samples.

Results

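The genes described here are 42 autosomal genes of the germline and of meiosis, out of 21938 protein-coding genes annotated on chromosomes 1 to 19, X and Y. They were taken from a list of named genes that was drawn up with earlier results of these data known, and were used to ask whether DPPA4, a DNA-binding protein of mouse embryonic stem cells (mESCs) and early embryos, occupied their promoters in mESCs and in 2-cell-like cells (2CLCs). DPPA4 had a promoter peak at 40 of the 42 genes in mESCs, beside 70% of all protein-coding genes, at 41 of 42 in 2CLCs, beside 61.9%, and at 39 genes in both, beside 59.9%. Counting only peaks with a −log10 q (adjusted significance) of at least 10, the shares were 45.2% and 45.6% in mESCs. In 2CLCs they were 40.5% and 30.1%, germline genes first. The promoter peaks of these genes were, at the median, weaker than those of all protein-coding genes in mESCs, and of the 39 genes with a peak in both, 17 ranked lower in the list of 2CLCs than in that of mESCs (43.6%, beside 79.0% of all such genes). The lists differ in length, and with the 50000 strongest peaks of each the shares were 37.1% and 56.5%. Promoters low in CpG, which were less often occupied over all genes, belonged to 5 of the 42 genes against 8202 of the 21938.

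The cells were mESCs of a BL6/129 hybrid background in which both alleles of Ehmt2 encode the protein fused to dTAG, so that a degrader removes it, and which report activity of the MERVL retroviral promoter by GFP. All libraries used here came from cells given dTAG for 72 h, and sorted live into a GFP-negative group, which stands for mESCs, and a GFP-positive group, which stands for 2CLCs. DPPA4 was mapped by CUT&RUN, in which an antibody directs a nuclease to the chromatin a protein occupies, with 2 libraries per group. The dTAG lines were derived from single cells and kept on mouse embryonic fibroblast feeders, and no library without dTAG enters the comparisons, so every value below is from EHMT2-depleted cells.

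The data were 2 peak lists, 1 per group, each pooled over the 2 libraries of its group. There is therefore no replicate error for any value below, differences between the lists remain untested, and the read depth of the lists is not known. On the chromosomes named above, 83602 peaks were listed for GFP-negative and 54642 for GFP-positive cells. Peak lists hold no expression values, so neither the identity of the sorted cells nor the transcription of any gene was checked here.

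Most genes that serve the germ cells alone are silent in mESCs although many have promoters rich in CpG. Their repression is known to involve EHMT2, which with EHMT1 places H3K9me2, a non-canonical Polycomb complex (PRC1.6) that reaches DNA through MGA and MAX at E-boxes and through E2F6, and DNA methylation after implantation. The encoded proteins build the synaptonemal complex and meiotic cohesin, make and repair meiotic DNA breaks, silence transposons through piRNAs, or direct the specification of germ cells.

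To show what lay under promoter peaks of different strength, the 101 bases centred on the GFP-negative summit (the position of highest signal within a peak) are printed for 4 genes, from GRCm38.p6 (the mm10 sequence) on the strand of the gene. Stag3 had the strongest promoter peak of all 42 genes in the GFP-negative list, Dmc1 was second in that list by −log10 q, Meioc had its summit at the same base in both lists, and so did Figla, whose peak was stronger in 2CLCs. The Stag3 stretch lies at chr5:138280066-138280166, the Dmc1 stretch at chr15:79605217-79605317, the Meioc stretch at chr11:102665403-102665503 and the Figla stretch at chr6:86017104-86017204. None of the 4 stretches held either of the motifs described next, and they held 9, 4, 6 and 8 CpG sites, in that order.
Stag3: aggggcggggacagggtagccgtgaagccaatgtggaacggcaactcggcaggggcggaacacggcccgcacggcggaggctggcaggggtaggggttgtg
Dmc1: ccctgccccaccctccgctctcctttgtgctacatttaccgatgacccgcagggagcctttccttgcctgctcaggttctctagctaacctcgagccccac
Meioc: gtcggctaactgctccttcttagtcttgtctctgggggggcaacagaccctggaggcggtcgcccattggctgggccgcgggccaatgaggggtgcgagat
Figla: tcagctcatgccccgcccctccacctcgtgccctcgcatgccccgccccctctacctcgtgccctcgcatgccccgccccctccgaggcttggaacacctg

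Sequences upstream of the start are shown for genes that carry the E-box CACGTG, the site of MAX and its partners, alone or with GCGGGA, a core of E2F sites. Each is the 240 bases before a RefSeq transcript start on GRCm38.p6, 5′ to 3′ on the strand of the gene, with matches to either motif on either strand in capitals. Mael lies at chr1:166238745-166238984, Hormad1 at chr3:95559437-95559676, Sycp1 at chr3:102936101-102936340, Sycp3 at chr10:88459347-88459586 and Sohlh1 at chr2:25847249-25847488. Sohlh1 held 3 copies of CACGTG, Hormad1 and Sycp3 each held 2 copies of CACGTG and 1 copy of GCGGGA, Mael held 1 copy of each, and Sycp1 held 1 copy of CACGTG.
Mael: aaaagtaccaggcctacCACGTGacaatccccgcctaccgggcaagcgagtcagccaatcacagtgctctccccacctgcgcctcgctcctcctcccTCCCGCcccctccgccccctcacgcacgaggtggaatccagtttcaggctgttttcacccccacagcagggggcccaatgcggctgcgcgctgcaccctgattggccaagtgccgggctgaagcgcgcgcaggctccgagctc
Hormad1: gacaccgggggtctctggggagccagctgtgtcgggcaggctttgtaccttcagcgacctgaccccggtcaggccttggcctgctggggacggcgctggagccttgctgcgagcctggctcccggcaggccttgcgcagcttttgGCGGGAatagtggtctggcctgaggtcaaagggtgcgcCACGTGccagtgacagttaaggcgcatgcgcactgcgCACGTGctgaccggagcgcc
Sycp1: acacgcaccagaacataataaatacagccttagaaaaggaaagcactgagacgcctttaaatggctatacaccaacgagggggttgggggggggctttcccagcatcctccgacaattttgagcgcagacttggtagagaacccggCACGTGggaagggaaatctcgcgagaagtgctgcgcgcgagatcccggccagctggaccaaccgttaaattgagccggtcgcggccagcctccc
Sycp3: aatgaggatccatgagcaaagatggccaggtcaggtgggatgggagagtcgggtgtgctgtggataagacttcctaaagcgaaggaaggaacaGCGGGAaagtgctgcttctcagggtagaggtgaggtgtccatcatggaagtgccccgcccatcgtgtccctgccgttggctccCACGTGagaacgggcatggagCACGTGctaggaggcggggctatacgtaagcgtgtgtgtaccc
Sohlh1: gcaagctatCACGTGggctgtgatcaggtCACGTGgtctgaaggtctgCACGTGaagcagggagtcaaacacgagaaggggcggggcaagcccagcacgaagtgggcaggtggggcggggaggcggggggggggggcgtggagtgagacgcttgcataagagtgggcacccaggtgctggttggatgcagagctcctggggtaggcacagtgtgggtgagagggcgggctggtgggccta

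A promoter was called occupied when a deposited peak shared at least 1 bp with the promoter window, which runs from 2.5 kb before to 0.5 kb after each transcript start of the gene. In the GFP-negative list 40 of the 42 germline genes (95.2%, Wilson 95% interval 84.2 to 98.7%) had such a peak, beside 70% of all protein-coding genes. In the GFP-positive list 41 of 42 (97.6%, 87.7 to 99.6%) had one, beside 61.9% of all protein-coding genes. These intervals cover counting error only, over genes and not over samples. Both shares of the germline genes were above those of all genes, and they remained so against autosomal genes, of which 71.9% and 63.7% had a promoter peak in the GFP-negative and GFP-positive list. The number of annotated starts, which sets how many windows a gene has, had a median of 3 in the germline genes and of 3 in all protein-coding genes.

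Promoters of 39 germline genes had a peak in both lists, a state that 59.9% of all protein-coding genes shared. Only Dnd1, an RNA-binding protein needed for the survival of primordial germ cells, had a promoter peak in the GFP-negative list alone, against 10.1% of all genes. Sohlh1, a helix-loop-helix factor of spermatogonia and oocytes, and Tex101, a surface protein of sperm cells, had one in the GFP-positive list alone, against 1.99% of all genes. None of the 42 genes lacked a promoter peak in both lists, whereas 28% of all protein-coding genes did.

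The 3 genes found in a single list differed in strength. At Dnd1 the GFP-negative peak had a fold enrichment of 5.98 over the background of the peak caller and a −log10 q of 9.69 (the authors' adjusted significance, lowest deposited value 1.304), with its summit 21 bp upstream of a start. The nearest GFP-positive peak lay within the gene, at a fold of 3.77, with its edge 561 bp and its summit 1024 bp from a start of Dnd1. Distances to a nearest peak are taken from its edge here. The Sohlh1 peak of the GFP-positive list had a fold of 3.78 and spanned the 3 copies of CACGTG shown above. The nearest GFP-negative peak was 4386 bp from a start of Sohlh1. At Tex101 the GFP-positive peak was 246 bp wide with a fold of 4.19, and the nearest GFP-negative peak was 7437 bp away. Dnd1 thus had a well-supported promoter peak in mESCs and, in 2CLCs, a weaker gene-body peak that did not overlap it. Sohlh1 and Tex101 had weak peaks in 2CLCs. Unequal depth of the lists and a difference in occupancy cannot be told apart here, for these or for any other gene.

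**Figure D1:**
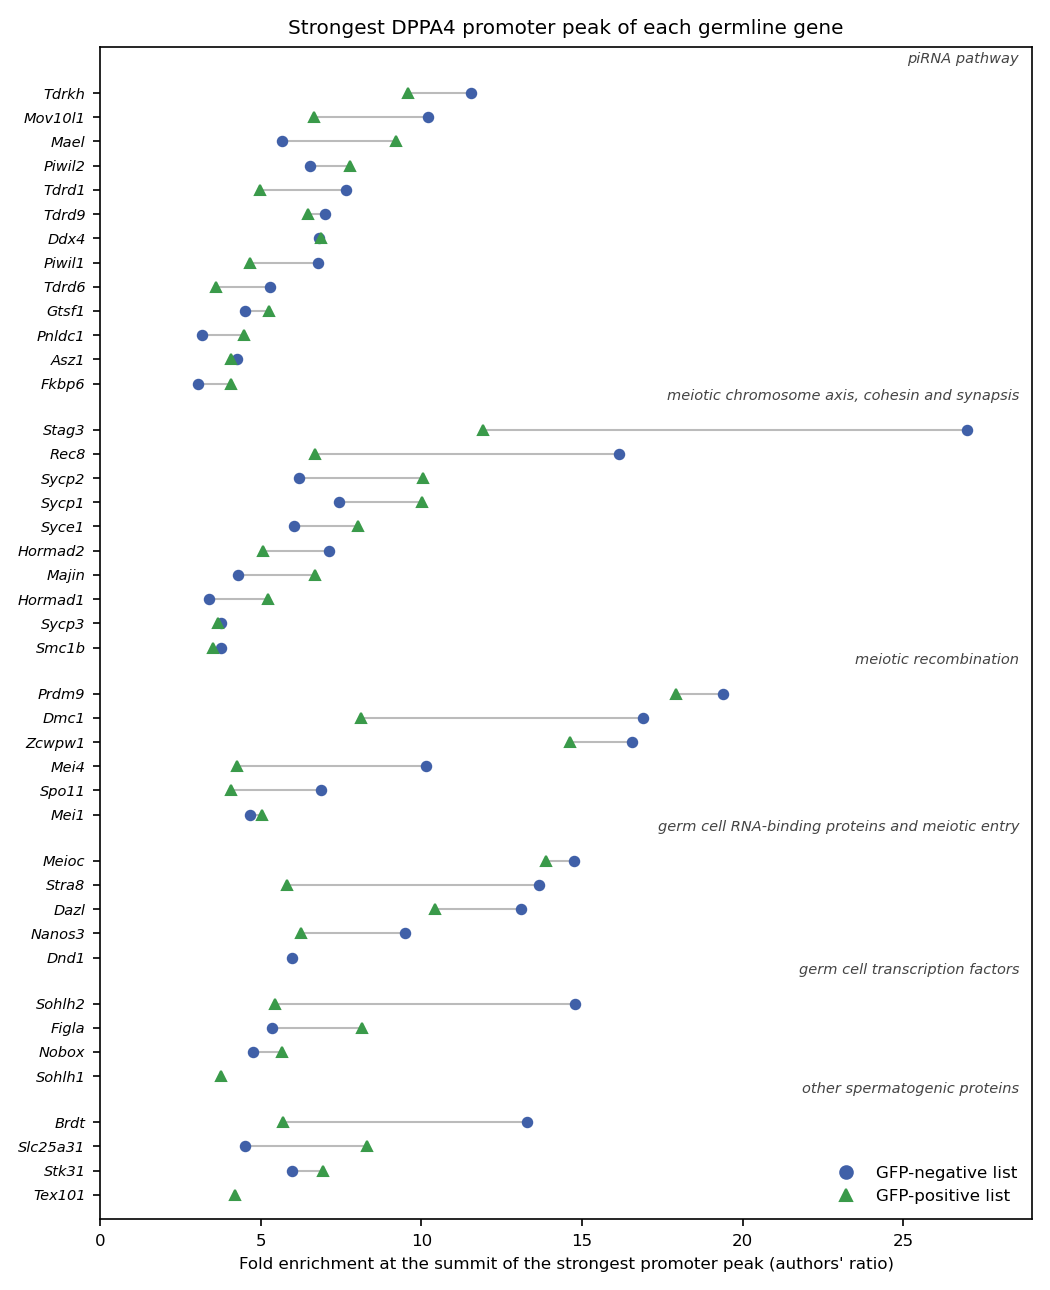
Fold enrichment (the authors' ratio, linear axis) at the summit of the strongest promoter peak of each germline gene, grouped by role, with circles for the GFP-negative list and triangles for the GFP-positive list. Stag3 reached 27.0 in the GFP-negative list, and Dnd1, Sohlh1 and Tex101 have a single symbol because the other list held no promoter peak for them.

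Genes of meiotic recombination held some of the strongest promoter peaks, and all 6 were occupied in both lists. Prdm9, the histone methyltransferase that marks recombination sites, had a fold of 19.4 in mESCs and 17.9 in 2CLCs, with summits 72 and 37 bp upstream of a start (peaks chr17:15563855-15564893 and chr17:15563737-15565048). Zcwpw1, which reads the marks that PRDM9 leaves, had folds of 16.6 and 14.6. Its summits lay 988 and 1093 bp upstream of the Zcwpw1 start but 95 and 10 bp from the start of Mepce, so its peak cannot be assigned to Zcwpw1 alone. Dmc1, the recombinase of meiotic strand exchange, had the widest gap of the 3, with a fold of 16.9 in GFP-negative and 8.13 in GFP-positive cells.

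The remaining recombination genes take part in forming meiotic DNA breaks and were weaker. Mei4, needed for break formation, had folds of 10.1 and 4.25 in the GFP-negative and GFP-positive list. Spo11, the enzyme that cuts the DNA, had folds of 6.86 and 4.08, with 3 promoter peaks in mESCs and 1 in 2CLCs. Mei1 had folds of 4.65 and 5.05, but at different starts, with summits 9700 bp apart, and at the site of the stronger GFP-negative peak the folds were 4.65 and 3.74. The strongest Spo11 peaks also lay at different starts, 2341 bp apart.

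Among the genes of the meiotic axis, cohesin and synapsis, all 10 had a promoter peak in both lists, with folds that ran from 3.39 to 27.0 in the GFP-negative and from 3.51 to 11.9 in the GFP-positive list. Stag3, a meiotic cohesin subunit, had a −log10 q of 90.8 in mESCs and 34.4 in 2CLCs (peaks chr5:138279391-138280375 and chr5:138279456-138281064). The region is shared: the GFP-negative summit lay 124 bp from the start of Stag3 and 111 bp from that of Gpc2, and the window of Gm43720 held it too. Rec8, the kleisin of meiotic cohesin, had folds of 16.2 and 6.70, with both summits at the same base 14 bp downstream of a start. Both of these cohesin genes thus had the higher fold in the list of mESCs, as a description of pooled lists.

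Other genes of the group had the higher fold in the list of 2CLCs. Sycp2, an axial element protein, had a fold of 6.18 in mESCs and 10.1 in 2CLCs. Syce1, of the central element, had folds of 6.02 and 8.03. Hormad1, an axis protein that monitors synapsis, had folds of 3.39 and 5.23, and Majin, which ties telomeres to the nuclear envelope, had folds of 4.30 and 6.67. Sycp1, the transverse filament, had folds of 7.43 and 10.03, but its strongest peak lay at an internal start and was 100% soft-masked (marked as repeat or low-complexity sequence). At the upstream start of Sycp1, whose sequence is shown above, the folds were 5.91 and 5.08.

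Hormad2, Smc1b and Sycp3 complete the group. Hormad2, the partner of HORMAD1, had folds of 7.13 and 5.08. Smc1b, the meiotic cohesin ATPase, and Sycp3, an axial element protein, were among the weakest of the 42 genes, with folds of 3.75 and 3.51 for Smc1b and of 3.76 and 3.68 for Sycp3. The promoter peaks of Smc1b in the 2 lists did not overlap, and its GFP-negative peak lay 199 bp from the start of Ribc2. At Sycp3 the GFP-negative promoter peak overlapped a GFP-positive peak that was counted to the gene body (fold 3.70), while the GFP-positive promoter peak lay 1263 bp from it by summit. The GFP-negative summit lay 978 bp downstream of the nearest start, past the 0.5 kb edge of the promoter window.

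All 13 piRNA pathway genes had a promoter peak in both lists, at moderate strength. Tdrkh, a Tudor protein of mitochondria needed for piRNA trimming, led with folds of 11.5 in mESCs and 9.57 in 2CLCs. Mov10l1, the helicase that starts piRNA biogenesis, had folds of 10.2 and 6.65. Mael, a component of the germ granule, had folds of 5.67 and 9.21, with a −log10 q of 7.25 and 18.7. These values place Mael second to Tdrkh within the group in the GFP-positive list.

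The PIWI proteins and the other Tudor proteins had lower folds than Tdrkh in both lists. Piwil2 had folds of 6.52 and 7.77, and Piwil1 of 6.77 and 4.67. The strongest GFP-negative summit of Piwil1 lay 2069 bp upstream of an internal start, the one taken as representative for the gene. It was 2050 bp from the strongest GFP-positive summit, which lay 19 bp upstream of that start. Tdrd1 had folds of 7.67 and 4.98, Tdrd9 of 6.998 and 6.48, and Tdrd6 of 5.30 and 3.62. The strongest peak of Tdrd9 was 82.6% and 80.3% soft-masked in the GFP-negative and GFP-positive list and lay within the gene at an alternative start. Ddx4, the germ cell helicase also called VASA, had nearly equal folds of 6.80 and 6.87.

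The remaining piRNA genes had folds of at most 5.24. Gtsf1, a cofactor of PIWI slicing, had folds of 4.505 and 5.24, and Asz1, which anchors the germ granule to mitochondria, of 4.27 and 4.09. Pnldc1, the nuclease that trims piRNAs, had folds of 3.19 and 4.48, and its GFP-negative peak had a −log10 q of 1.304, the lowest that the list holds. Fkbp6, a co-chaperone of PIWI loading, had folds of 3.03 and 4.07 in peaks that did not overlap, and its GFP-positive peak lay 1896 bp upstream, in a stretch shared with the promoter of Trim50.

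Of the 5 genes of germ cell RNA binding and meiotic entry, 4 had a promoter peak in both lists, Dnd1 being the exception described above. Meioc, which with YTHDC2 carries germ cells into meiosis, had folds of 14.8 in mESCs and 13.9 in 2CLCs, with both summits at the same base (peaks chr11:102664839-102666477 and chr11:102664910-102666368). Dazl, an RNA-binding protein needed for germ cells to form gametes, had folds of 13.1 and 10.4. Its summits lay 886 bp apart, 77 bp downstream and 65 bp upstream of different starts, in peaks that overlapped. Stra8, the retinoic acid-induced gatekeeper of meiosis, had folds of 13.7 and 5.82. The summits of its main peak lay 1975 and 1940 bp into the gene, and 1128 and 1093 bp downstream of the nearest start. Both summits thus lay past the 0.5 kb edge of the promoter window, which the peaks reached with their upstream ends. Nanos3, which protects primordial germ cells, had folds of 9.49 and 6.25 in a peak centred 1450 and 1532 bp upstream of its outermost start. At the internal start taken as representative for Nanos3, the strongest GFP-negative promoter peak had a fold of 4.57. The GFP-positive list held no promoter peak at that internal start.

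The germ cell transcription factors differed from each other. Sohlh2, a helix-loop-helix factor and partner of SOHLH1, had a fold of 14.8 in mESCs and 5.43 in 2CLCs, with summits 81 and 46 bp upstream. Figla, which drives the egg coat genes of oocytes, had folds of 5.35 and 8.15 at the same summit base. Nobox, an oocyte homeobox factor, had folds of 4.74 and 5.67.

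Of the other spermatogenic genes, Brdt, the testis bromodomain protein, had folds of 13.3 and 5.70 at an internal start, while at its upstream start the folds were 9.85 and 5.82. Slc25a31, the ADP/ATP carrier of male germ cells, stood at percentile 49.5 of the GFP-negative list and at percentile 83.3 of the GFP-positive list, with folds of 4.505 and 8.32. Stk31, a Tudor-domain kinase of the testis, had folds of 5.98 and 6.93. Here and below a percentile is the rank of a peak by −log10 q within its own list.

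The strength of the promoter peaks was next compared with all protein-coding genes. The median fold of the strongest promoter peak was 6.79 over the 40 occupied germline genes and 8.61 over all occupied genes in the GFP-negative list. In the GFP-positive list the medians were 6.25 and 6.56. A −log10 q of at least 10 was reached by 19 of 40 germline promoters (47.5%) and by 65.2% of all occupied promoters in the GFP-negative list, and by 17 of 41 (41.5%) and 48.7% in the GFP-positive list. Over all deposited peaks, germline promoters were thus occupied more often than others. Where occupied, they were weaker at the median in the GFP-negative list, and closer to other genes in the GFP-positive list. At a −log10 q of at least 10, 45.2% of the 42 germline genes and 45.6% of all genes were occupied in the GFP-negative list. The higher GFP-negative share was thus not seen at that threshold, while in the GFP-positive list it was 40.5% and 30.1%.

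Of the 39 germline genes with a peak in both lists, 17 (43.6%) ranked higher in the GFP-negative list and 22 ranked higher in the GFP-positive list. Among the 13145 protein-coding genes with a peak in both, 79.0% ranked higher in the GFP-negative list. The median change in percentile from the GFP-negative to the GFP-positive list was 1.32 for the germline genes and -5.84 for all genes, and the median log2 ratio of the folds was -0.10 and -0.54. These comparisons are a description over pooled lists of different size. At some genes, such as Mei1 and Spo11, the strongest peaks compared lay at different starts. With each list limited to its 50000 strongest peaks, 13 of 35 germline genes (37.1%) and 56.5% of all genes ranked higher in the GFP-negative list, so the gap was smaller.

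As germline peaks were weaker at the median, the same count was made within ranges of the GFP-negative percentile, a step chosen after seeing the data. Below percentile 50, 2 of 8 germline genes (25%) ranked higher in the GFP-negative list, beside 39.1% of all genes. From percentile 50 to 75 it was 3 of 12 (25%) beside 67.0%, from 75 to 90 it was 5 of 7 (71.4%) beside 79.9%, and from 90 upwards it was 7 of 12 (58.3%) beside 89.9%. The share of the germline genes was below that of all genes in each range, on 7 to 12 germline genes per range.

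**Figure D2:**
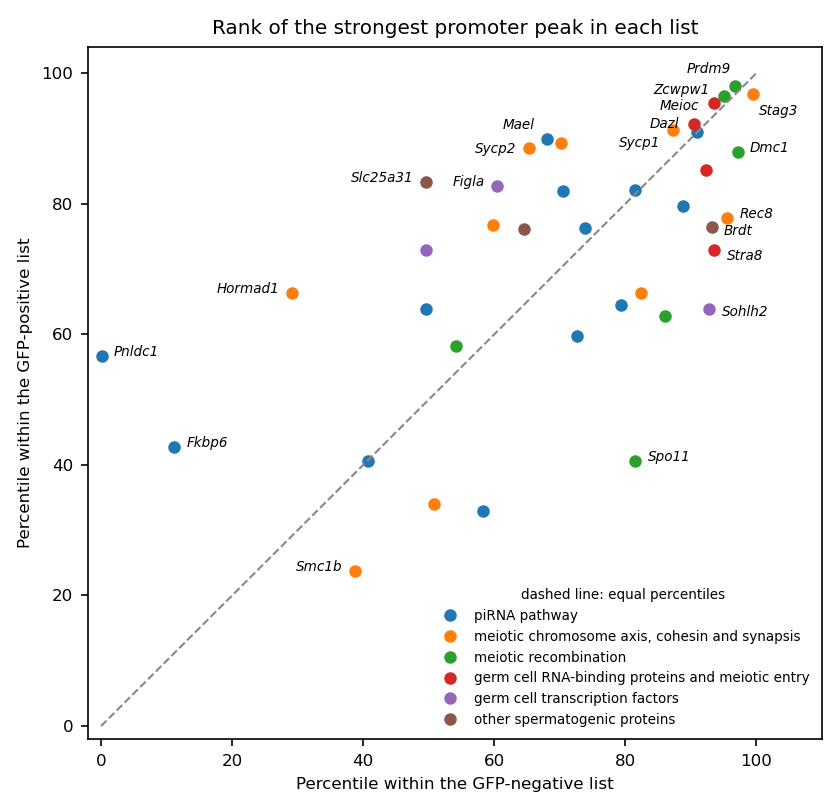
Percentile of the strongest promoter peak by −log10 q within the GFP-negative list (horizontal) and the GFP-positive list (vertical) for the 39 germline genes with a promoter peak in both, coloured by role. Points above the dashed line of equal percentiles ranked higher in the GFP-positive list, as 22 of 39 did.

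Occupancy over all genes differed with the CpG content of the promoter, so promoters were split by the CpG ratio (observed over expected) of 500-bp windows around 1 representative start into high, intermediate and low classes. All 15 CpG-high germline promoters were occupied in both lists, beside 98.5% of all CpG-high promoters in mESCs and 94.3% in 2CLCs. Of the 22 CpG-intermediate germline genes, 20 and 21 were occupied, beside 84.8% and 70.4%. All 5 CpG-low genes (Figla, Gtsf1, Nanos3, Stra8 and Tdrd1) were occupied in both lists, beside 31.6% and 23.8% of all CpG-low genes. In the high class nearly every promoter of the genome was occupied, so the germline genes could hardly differ there. Of genes with a peak in both lists, 3 of 15 CpG-high germline genes ranked higher in the GFP-negative list (20%, beside 77.9% of all). It was 11 of 19 in the intermediate class (57.9%, beside 80.8%) and 3 of 5 in the low class (60%, beside 79.7%). Median changes in percentile were 1.88 beside -4.73 in the high, -9.17 beside -7.77 in the intermediate and -7.10 beside -9.60 in the low class. The germline median thus rose in the CpG-high class alone.

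The CpG class was measured at 1 start per gene while occupancy was counted at any start. Counted at the representative start alone, which was added after seeing the data, 3 of the 5 CpG-low genes were occupied in each list (60%), beside 24.2% and 16.6% of all CpG-low genes. Tdrd1 and Stra8 were the exceptions in the GFP-negative list, and Stra8 and Nanos3 in the GFP-positive list. In the intermediate class the count at the representative start was 18 of 22 in the GFP-negative list (81.8%, beside 82.5% of all) and 20 of 22 in the GFP-positive list (90.9%, beside 66.7%). The GFP-negative share of the intermediate class was therefore near that of all genes under this count.

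**Figure D3:**
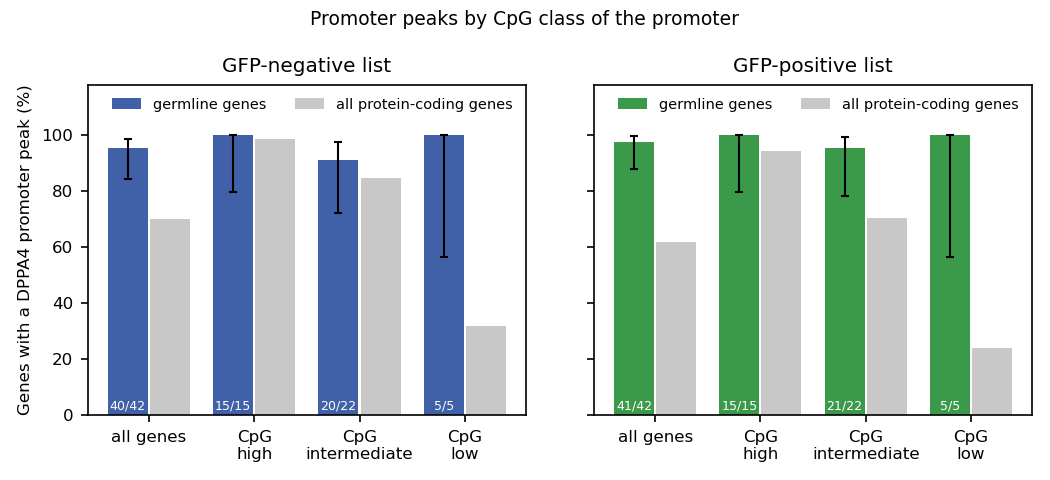
Share of genes with a DPPA4 promoter peak in the GFP-negative list (left) and the GFP-positive list (right), for the germline genes (coloured bars, with Wilson 95% intervals as error bars and the counts at the foot) and for all protein-coding genes (grey), over all genes and by CpG class. The 5 CpG-low germline genes stand at 100% beside 31.6% and 23.8% of all CpG-low genes, with wide intervals.

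Promoter peaks were chosen for overlap with a window around a start, so their closeness to a start is partly set by that choice. The summit of the strongest promoter peak lay within 500 bp of a transcript start at 31 of 40 germline genes in the GFP-negative list and at 33 of 41 in the GFP-positive list, with median distances of 132.5 and 107 bp. At 36 of the 39 genes occupied in both lists the promoter peaks overlapped, Fkbp6, Smc1b and Sycp3 being the exceptions, of which Sycp3 shared its site with a gene-body peak. The summits of the strongest peaks lay within 200 bp of each other at 27 of the 39 genes, and the median distance between them was 82 bp. Most germline genes with a promoter peak in both lists thus had it at the same place in mESCs and 2CLCs. These counts of position and overlap were not made for all protein-coding genes, so nothing particular to germline genes can be read from them. The median width of the strongest promoter peak was 995 bp in mESCs and 1104 bp in 2CLCs, beside 1253 and 1360 bp for the strongest promoter peak of all protein-coding genes.

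**Figure D4:**
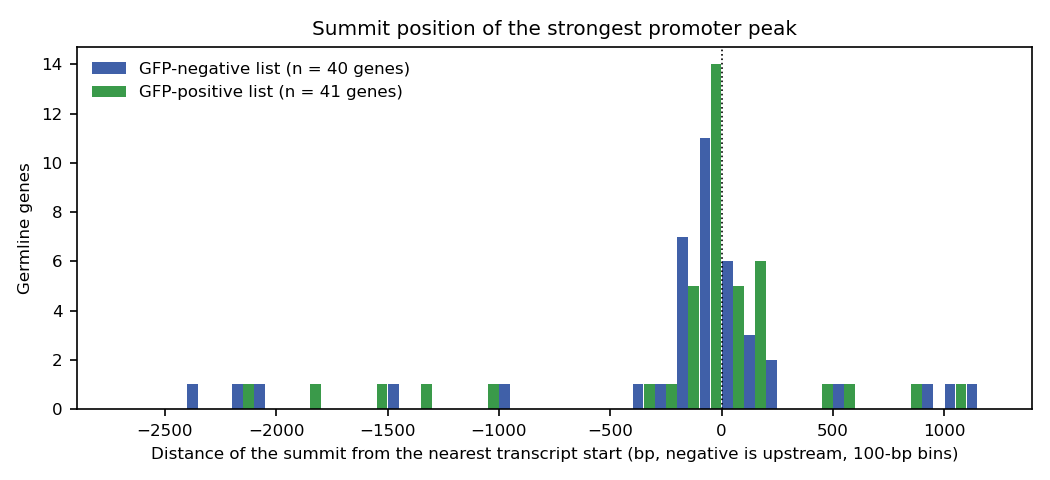
Number of germline genes by the distance of the strongest promoter summit from the nearest transcript start, in bins of 100 bp with the bars of both lists side by side within a bin (negative values are upstream). Most summits stand close to the start in both lists, 31 of 40 and 33 of 41 of them within 500 bp.

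Gene bodies outside the promoter windows gave a different picture. In the GFP-negative list 15 of the 42 genes (35.7%) held 41 gene-body peaks, beside 43.4% of all protein-coding genes with at least 1. In the GFP-positive list 20 genes (47.6%) held 29 such peaks, beside 34.4%. The germline genes are longer, with a median span of 30110 bp against 17425 bp, and per 100 kb of gene they held 2.19 peaks in mESCs and 1.55 in 2CLCs, where all genes held 3.12 and 1.75. Per length, gene-body peaks were thus less dense in germline genes than in all genes in both lists, which was not tested.

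Most gene-body peaks were weak, with a median fold of 3.90 in mESCs and 3.74 in 2CLCs, and 7 of 41 and 6 of 29 had a −log10 q of at least 10. The median fold over all peaks of each list was not far above, at 4.27 and 4.13. Strength was not counted for the gene-body peaks of all genes, so this is not a trait particular to germline genes. The strongest of the GFP-negative list lay at Nanos3, in an intron next to the microRNA genes Mir181c and Mir181d, with folds of 30.1 and 13.1 (peaks chr8:84179656-84181288 and chr8:84179810-84181297). This peak lies in the promoter windows of both microRNAs and exceeded the Nanos3 promoter peak in both lists. At Mei1 a GFP-negative peak with a fold of 21.2 lay at the 3′ end, in the promoter window of the neighbouring Ccdc134, and it overlapped a GFP-positive peak (−log10 q 28.99). In the GFP-positive list the gene-body peaks of Gtsf1, Mei4 and Prdm9, given next, had higher folds than that of Nanos3.

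Prdm9 held a gene-body peak nearly as strong as its promoter peak, with folds of 17.9 in mESCs and 15.2 in 2CLCs (peaks chr17:15543989-15545520 and chr17:15544056-15544975). Both summits fell in the last exon of the gene, chr17:15543079-15545360, and 1.76% and 0% of the peak was soft-masked. That exon is known to encode the zinc finger array of PRDM9, a tandem repeat, and where in the array the reads came from cannot be resolved from peak lists.

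Intron peaks of Gtsf1 and Mei4 lay in masked sequence instead. At Gtsf1 the folds were 13.5 and 20.8, above its promoter folds of 4.505 and 5.24, and 92.8% and 91.6% of the peak was soft-masked (peaks chr15:103410117-103412921 and chr15:103409996-103412977). At Mei4 a peak 73 kb into the gene had folds of 17.2 and 15.9 and was 85.9% and 94.6% soft-masked (chr9:81936140-81937508 and chr9:81936123-81937334). Of the gene-body peaks, 6 in mESCs and 8 in 2CLCs were more than 75% soft-masked, and of these strongly masked peaks 6 in each list overlapped a peak of the other list. Masking was not counted for the gene-body peaks of other genes. Reads that match many places were placed at 1 of them by the authors, so a peak in repeats does not show which copy was occupied.

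**Figure D5:**
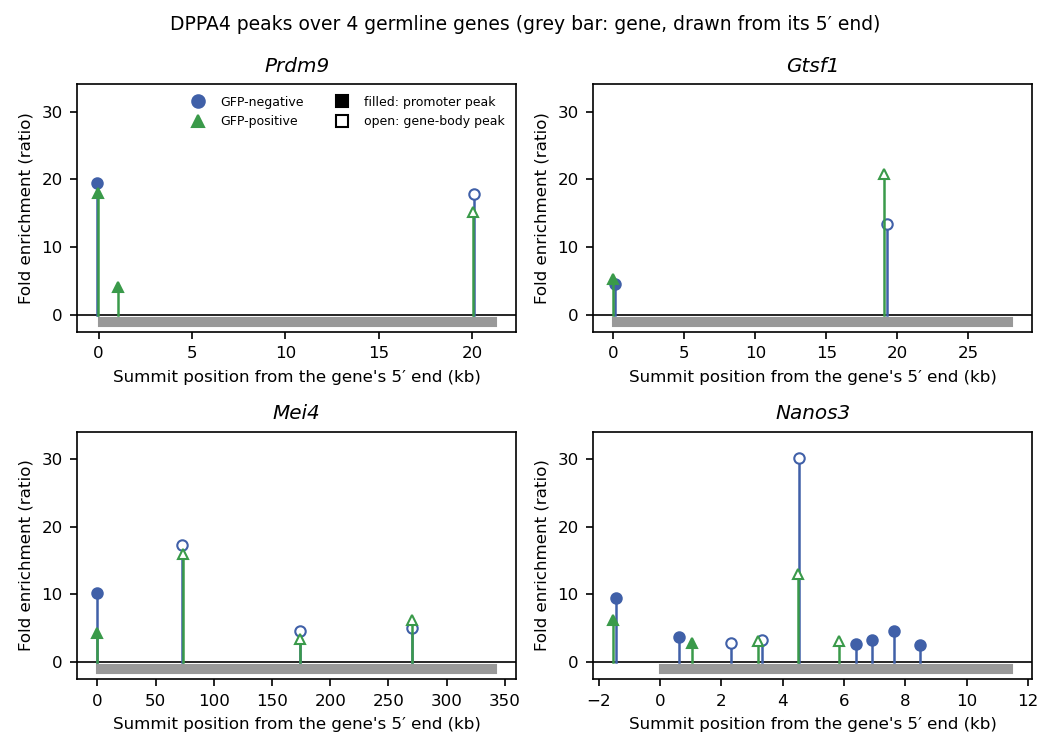
Fold enrichment (ratio) of every DPPA4 peak over Prdm9, Gtsf1, Mei4 and Nanos3 by the distance of its summit from the 5′ end of the gene in kb, with circles for the GFP-negative and triangles for the GFP-positive list, filled for promoter peaks and open for gene-body peaks. In Gtsf1 the intron peak, with folds of 13.5 and 20.8, stands above the promoter peak.

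A second list of 40 germline genes outside the 42 was counted in the same way. Of these, 35 (87.5%) had a promoter peak in mESCs and 31 (77.5%) had one in 2CLCs, 31 of them in both. The strongest in the GFP-negative list were Mnd1, which promotes meiotic strand exchange (fold 19.9), Msh5, of the crossover pathway (17.4), and Ythdc2, the RNA helicase that acts with MEIOC (14.5). The strongest in the GFP-positive list were Mnd1 (11.4), Boll, a relative of DAZL (11.6), and Rnf17, a Tudor protein of the germline (13.3), in order of −log10 q.

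Msh4, Meiob, Piwil4 and Rec114 of that list had a promoter peak in GFP-negative cells alone (10%, beside 10.1% of all genes). Mcmdc2, Ccdc36, Nanos2, Rnf212 and Lhx8 had none in either list (12.5%, beside 28% of all genes). Both shares were above those of all genes, yet occupancy was not universal among germline genes outside the 42. The 15 genes that encode PRC1.6 subunits, which are broadly expressed, had a promoter peak in both lists without exception, but 14 of them are CpG-high, a class of which 93.7% of all genes had a peak in both lists. L3mbtl2 (fold 20.6), Max (19.9) and Ring1 (17.3) led in the GFP-negative list, and Ring1 (14.3), Max (13.6) and Cbx3 (11.7) in the GFP-positive list.

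Motifs were counted in RefSeq promoter sequences of GRCm38.p6, from 250 bases before to 50 after a start, which were found for 36 of the 42 genes. CACGTG, which reads the same on both strands, was present at 15 of 36 germline genes (41.7%), beside 9.18% of 16522 protein-coding genes and 7.15% of all 32851 promoters. GCGGGA, searched on both strands, was present at 12 of 36 (33.3%), beside 29.2% of protein-coding genes and 19.98% of all promoters. Both motifs were held by 7 of 36 germline genes (19.4%), namely Ddx4, Hormad1, Mael, Slc25a31, Stag3, Sycp1 and Sycp3, beside 3.68% of protein-coding genes. The end of one motif can share a single G with the beginning of the other.

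The E-box stood out in share while the E2F-like core was near its background, and no test was made of either. A match to CACGTG fell inside a promoter peak of the gene at 11 of the 15 genes in the GFP-negative list and at 13 of 15 in the GFP-positive list. This was not counted for other genes with the motif. The motif was searched close to a start, where most germline genes had a peak, so the count does not link it to DPPA4. The exceptions were Piwil1, Sohlh1, Sycp3 and Tdrd9 in the GFP-negative list, and Fkbp6 and Tdrd9 in the GFP-positive list. The GFP-positive peaks of Sohlh1 and Sycp3 overlapped the sequences printed above, where the GFP-negative list held no peak. A match is a string of letters, and whether MAX, MGA or an E2F protein occupied it was not measured here.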

How the data were processed

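DPPA4 CUT&RUN was performed in 4 libraries, 2 of GFP-negative and 2 of GFP-positive cells, grouped by their titles. As the methods and the submitters' processing notes state, the authors trimmed reads with bbduk, aligned them with STAR 2.7.10 while keeping reads of many matches at 1 random position, removed duplicates (Picard 2.26.0) and reads over blacklisted regions (SAMtools 1.14), converted fragments with bedtools 2.30.0 and called peaks with MACS2 2.2.6 on mm10. The deposited lists give the authors' fold enrichment (ratio over local background), −log10 q-value and summit offset, which were used, and a score and −log10 p-value, which were not. Each deposited list pools its libraries, which may differ only technically. The depth is unknown, and the IgG libraries were not used here. 

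Peaks were intersected with GENCODE vM21 starts in Python 3.11.15 (pandas 2.3.3, pysam 0.24.0), with Wilson intervals from statsmodels 0.14.6, and the counting was tested on simulated peaks. The CpG-high class needs a 500-bp window, from 1.3 kb upstream to 0.2 kb downstream, with a CpG ratio over 0.75 and a GC content over 55%, and the low class has none over 0.48. Coordinates are 1-based. All 42 genes, a list of 40 other germline genes and 15 PRC1.6 genes were counted, and genes outside the 42 were named when they were among the 3 strongest of their list, had no peak or shared a peak. Members and lists were chosen with earlier results of these data known. Thresholds, list sizes, overlaps, windows, starts and neighbouring promoters were varied as alternatives.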

Additional observations from a re-analysis of the deposited data

How the results depend on the processing

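No paired analysis was possible because each list pools its libraries, so no replicate can be left out or matched either. In 9 of 10 alternative settings the germline genes had the higher share of occupied promoters in the GFP-negative list than all protein-coding genes, and in 10 of 10 in the GFP-positive list. The exception was a −log10 q of at least 10, where 45.2% of germline and 45.6% of all genes were occupied in the GFP-negative list, and 40.5% and 30.1% in the GFP-positive list. That setting left 11 germline genes occupied in both lists, and 14.3% of the 42 germline genes with a gene-body peak in each list.

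At a −log10 q of at least 5, the shares were 69% of germline and 58.3% of all genes in the GFP-negative list and 71.4% and 45.1% in the GFP-positive list, and gene-body peaks remained in 21.4% and 16.7% of germline genes. With the 10000 strongest peaks of each list, the shares were 31% and 28.1% in the GFP-negative list and 38.1% and 26.5% in the GFP-positive list. This left 8 germline genes in both lists, and 11.9% and 14.3% of the 42 germline genes with a gene-body peak. Stricter thresholds keep fewer peaks by construction.

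The share of all protein-coding genes, in the GFP-negative and then the GFP-positive list, was 64.5% and 60.6% with 50000 peaks each, 67.8% and 59.3% with the summit in the window, 68.7% and 60.4% from 1 kb upstream to 0.5 kb downstream, 72.3% and 64.6% from 5 kb upstream to 1 kb downstream, 66.5% and 57.8% with the representative start alone, 58.6% and 50.5% without peaks at a second coding promoter, and 71.9% and 63.7% on autosomes. The germline share in the GFP-positive list was 100% in the widest window. Elsewhere the germline shares stayed within their intervals.

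Of 95 alternative values, 56 stayed within the interval or within 1.5 times of the main value and 39 moved. Comparisons of rank between the lists, with their alternatives, and counts by rank range were added after seeing the data. Strength was not compared across lists by a test, and unequal depth of the lists, which was not measured, touches every statement of presence in 1 list.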
